A study of Mus musculus with 6 samples.

Results

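The 39 genes described here build the mitotic spindle, attach it to chromosomes or divide the cell, and their RNA was measured after the long noncoding RNA Ntep had been targeted in mouse fibroblasts. They comprise mitotic kinases, the spindle assembly checkpoint, the chromosomal passenger complex, kinetochore and centromere proteins, kinesin motors, spindle and midzone microtubule proteins, cleavage furrow proteins, regulators of the anaphase-promoting complex, and topoisomerase II alpha. The genes were taken by name from the 35527 gene names of the array, where 55 of 55681 non-control probes measured them. 3T3 cells, a line of mouse embryonic fibroblasts, received 50 nM of a GapmeR against Ntep or of a GapmeR control for 48 h, and total RNA was hybridized to 1-color Agilent arrays. A GapmeR is an antisense oligonucleotide that directs the cleavage of its target RNA. Each group held 3 arrays, 1 from each of 3 independent experiments, and both groups shared the cell line, the medium and the transfection. The control was another oligonucleotide rather than untreated cells, and 1 GapmeR sequence stood for the targeting of Ntep.

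During mitosis, kinetochores assemble on centromeric chromatin and bind spindle microtubules, and the spindle assembly checkpoint restrains the anaphase-promoting complex until every chromosome is attached. The complex then marks securin and cyclin B for destruction, separase opens cohesin, and the central spindle positions the furrow that divides the cell. Most of these genes are transcribed late in the cell cycle and are therefore read as markers of proliferating fibroblasts. In RNA from a whole culture, more cells in a phase of the cycle and more RNA per cell cannot be told apart.

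Ntep itself was read first, as a check of the labels. In experiments 1, 2 and 3 its probe gave normalized signals of 472, 91.5 and 226 where the label was GapmeR Ntep and of 271, 272 and 361 where it was GapmeR control. It was higher on the array labelled GapmeR Ntep in experiment 1 (log2 difference 0.80) and lower in experiments 2 and 3 (-1.57 and -0.68), and the pooled difference of -0.48 did not pass the test (SE 0.58, adjusted p = 0.632). Experiment 1 thus went against its label at this probe, and every direction below is that of the labels. The collagen genes Col1a1 and Col3a1 had 1 sign in all 3 experiments, with differences of -0.53, -0.11 and -0.66 for Col1a1 and of -1.15, -0.61 and -0.68 for Col3a1. Neither passed the adjusted test (adjusted p = 0.212 and 0.164), and 26.9% of all tested genes were lower in all 3 experiments. Without both arrays of experiment 1, the Ntep difference was -1.12 and the median difference of the mitotic genes was 0.25 instead of 0.27. In that fit 0 of them passed the adjusted test, beside 1.2% of all tested genes called higher and 1.65% lower. At an unadjusted p under 0.05 there were 11, and the share of all genes by that rule was not counted in that fit.

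All 6 arrays came from 1 slide and 1 scan, between 43.7% and 53.3% of the probes of an array were well above background, and no probe of the array was saturated. Of 10 fibroblast markers, 9 were well above background on all 6 arrays, and Lum was not. Their summed signal was 555668 to 737361 on the GapmeR Ntep arrays and 808084 to 891104 on the controls. No tested fibroblast marker passed the adjusted test, and Thy1 (0.05) and Vim (-0.12) had mixed signs over the experiments. The summed signal of 8 macrophage markers was 42434 to 75230.2 on the GapmeR Ntep arrays and 19907 to 27394 on the controls. Itgam, Cd68, Cd14 and Csf1r were well above background on all 6 arrays, Lyz2 on 3, and Adgre1, Mrc1 and Ptprc on none. Of these markers Cd68 alone passed the adjusted test (adjusted p = 0.0287), and Lyz2 differed by -0.18 (SE 0.32) with mixed signs. A second fit set each GapmeR Ntep array against its own control. In it Csf1r (adjusted p = 0.0387), Itgam (adjusted p = 0.0397), Cd68 (adjusted p = 0.0314) and Cd14 (adjusted p = 0.0332) passed, all higher. Lyz2 and the fibroblast markers did not pass there, and 6.5% of all tested genes were called higher in that fit. For the epithelial, endothelial and muscle markers the summed signals of both groups overlapped, but single markers differed. Cldn3 alone of these passed the adjusted test (1.47, adjusted p = 0.0276), at a probe well above background on 2 of 6 arrays. Myog, so on 4 of 6, was lower in all 3 experiments (-2.94, adjusted p = 0.0661). In the second fit Cldn3, Krt14 and Acta1 passed as higher and Myog as lower. These shifts of the summed fibroblast and macrophage signals run beside every result below, and their part in them was not tested.

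The 3 probes with the lowest adjusted p among those of the mitotic genes are shown here. For Cdca8 this is not the brightest probe, which stands for the gene in the counts below. Each of the 3 is 60 bases long, lies on the minus strand of mm9, and has at least 1 forward reading frame without a stop codon. They lie at chr4:124599245-124599304 (Cdca8), chr14:48015431-48015490 (Dlgap5) and chr1:171428989-171429048 (Nuf2).
Cdca8: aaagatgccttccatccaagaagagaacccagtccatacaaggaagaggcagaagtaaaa
Dlgap5: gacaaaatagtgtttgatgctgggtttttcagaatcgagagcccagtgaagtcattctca
Nuf2: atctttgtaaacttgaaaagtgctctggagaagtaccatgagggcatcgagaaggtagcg

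The comparison of GapmeR Ntep with GapmeR control asked whether the RNA of these mitotic genes differed once Ntep had been targeted. Most of the genes were modestly higher under GapmeR Ntep, and none passed the adjusted test by its brightest probe. The largest differences were those of Nuf2, Nek2, Dlgap5 and Cdca8 on the higher side and of Nusap1 on the lower side. Signals were quantile normalized across the arrays, and differences are log2 of GapmeR Ntep over GapmeR control, fitted with limma over all tested probes. Of the 39 genes, 38 passed the filter on dim signals and were well above background on all 6 arrays. Aurkb, the kinase of the passenger complex, read 14.6, 21.1 and 46.9 on the GapmeR Ntep arrays and 20.8, 36.7 and 28.1 on the controls. These values were not well above background on any array, and Aurkb was not tested.

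With an adjusted p under 0.05, 0 of the 38 genes were called in either direction, against 1.99% of the 22078 tested genes called higher and 3.18% called lower. The smallest adjusted p among the 38 was 0.0511. At an unadjusted p under 0.05, 13 genes (34.2%) were higher and 1 (2.63%) was lower, beside 12.3% and 12.6% of all tested genes. The test of the study's methods called 0 genes after adjustment, beside 0.471% of all tested genes called higher and 0.453% lower. At an unadjusted p under 0.05 it gave 13 higher and 2 lower genes. The share of all genes by that rule was not counted with that test. A fold of 2 with an unadjusted p under 0.01 was reached by Nuf2 alone, or 2.63% of the 38 genes, where 2.89% of all tested genes were higher and 5% lower by that rule. Nuf2 no longer reached it when the GapmeR Ntep array of experiment 1 or 3, or the control array of experiment 2 or 3, was left out.

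With the experiment as a block, which sets each GapmeR Ntep array against its own control, 2 genes passed the adjusted test and both were higher, Nuf2 (adjusted p = 0.0404) and Cdca8 (adjusted p = 0.0444). They made up 5.26% of the 38 genes, beside 6.5% of all tested genes called higher and 7.41% called lower in that fit. When a gene was called by any of its tested probes instead of the brightest, Cdca8 passed without the block (adjusted p = 0.0341), and 2.59% of all genes were higher by that rule.

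The median log2 difference of the 38 genes was 0.27, beside 0.06 over all tested genes. Of the 38 genes, 28 (73.7%) were above 0 and 10 below, beside 54.3% of all tested genes above 0. With arrays scaled to their 75th percentile, 32 were above 0 and 6 below, since Bub1, Spc25, Anln and Top2a, all close to 0, turned positive, and the median of all genes was itself shifted by 0.16. The share of all genes above 0 was not counted under that scaling. All 3 GapmeR Ntep arrays lay above all 3 controls for 15 genes (39.5%, beside 17.1% of all tested genes) and below them for Fzr1, Kif11 and Nusap1 (7.89%, beside 15.4%). In each of the 3 experiments 18 genes (47.4%) were higher and 6 (15.8%) lower, beside 32.3% and 26.9%. The 38 differences lay between -0.58 and 1.07, with SEs from 0.15 to 0.29, while those of all tested genes reached from -5.89 to 5.43. For 24 genes the 95% confidence interval spanned 0, and for 25 it excluded a fold of 2 in either direction.

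**Figure D1:**
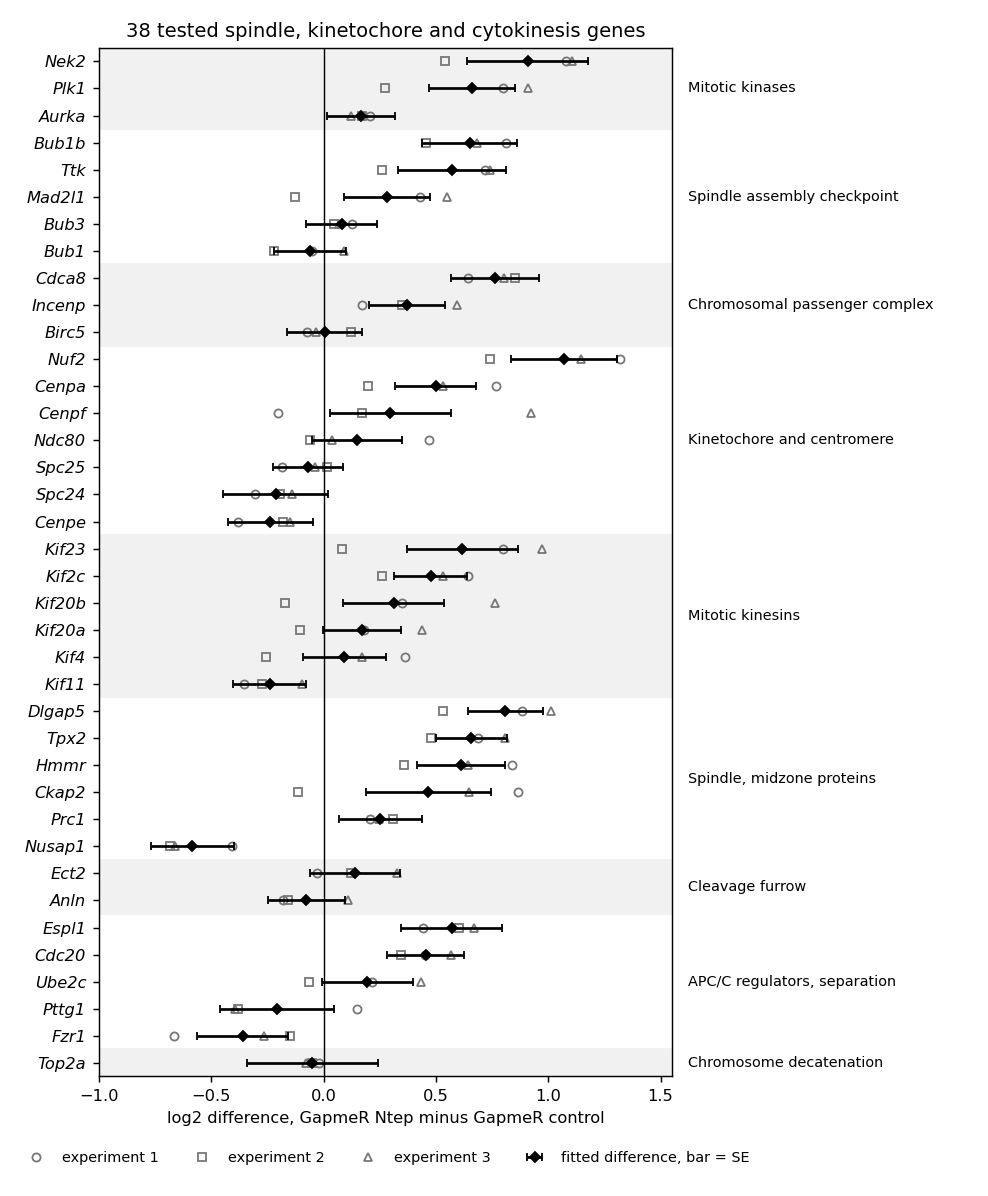
Log2 difference between GapmeR Ntep and GapmeR control for the 38 tested genes, grouped by role, with the fitted difference and its SE (diamond and bar, 3 arrays per group) and the difference within each of the 3 experiments (open symbols). Nuf2 lies farthest to the right at 1.07 and Nusap1 farthest to the left at -0.58, and for many genes on the right the square of experiment 2 lies nearest to 0.

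**Figure D2:**
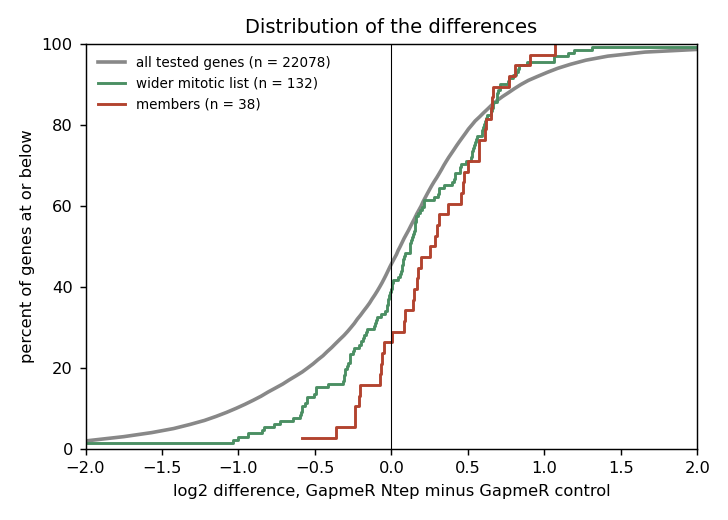
Percent of genes at or below each log2 difference, for all 22078 tested genes (grey), a wider list of 132 tested mitotic genes (green) and the 38 tested members (red). The median is 0.27 for the members and 0.06 for all genes, and the members' curve begins at -0.58 and ends at 1.07.

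The experiments differed in the size of the shift. The median of the 38 differences was 0.28 in experiment 1, 0.10 in experiment 2 and 0.48 in experiment 3. The medians over all tested genes were 0.03, 0.05 and 0.03. Of the 38 genes, 26, 22 and 29 were above 0, beside 11426, 11789 and 11475 of the 22078 tested genes. Relative to each gene's mean over the 6 arrays, the median gene stood at 0.18, 0.06 and 0.24 on the GapmeR Ntep arrays of experiments 1, 2 and 3, and at -0.13, -0.06 and -0.23 on their controls. Each GapmeR Ntep array thus stood above each control array, with the narrowest gap within experiment 2.

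**Figure D3:**
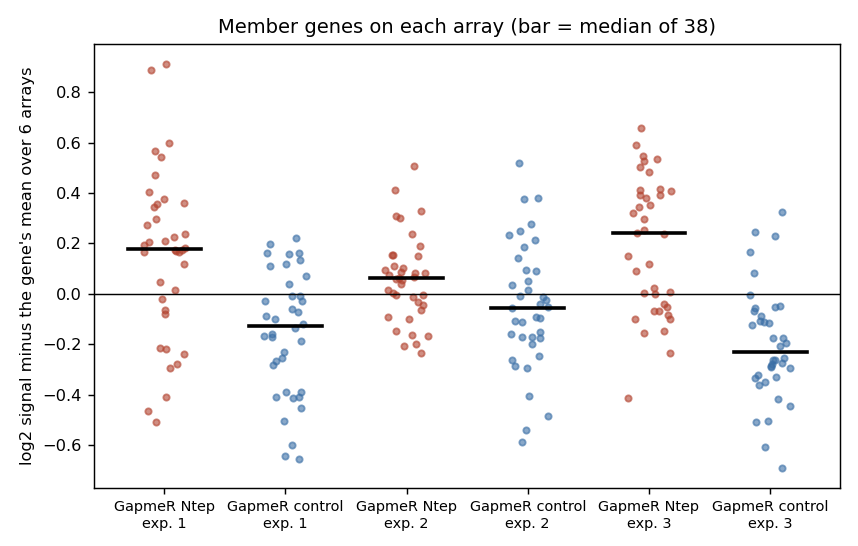
Log2 signal of the 38 tested genes on each of the 6 arrays, minus each gene's mean over the arrays (1 point per gene, bar at the median). The medians are 0.18, 0.06 and 0.24 on the GapmeR Ntep arrays and -0.13, -0.06 and -0.23 on the control arrays of experiments 1, 2 and 3.

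The 3 genes grouped as mitotic kinases, Nek2, Plk1 and Aurka, were higher under GapmeR Ntep in every experiment. Their median difference was 0.66, but none passed the adjusted test. Other kinases among the 39 genes are grouped with their complexes: Ttk (0.57) and Bub1 (-0.06) with the checkpoint, and Aurkb, not tested, with the passenger complex. Nek2, a centrosome kinase that helps the spindle poles to separate, read 24982, 14044 and 17990.4 on the GapmeR Ntep arrays of experiments 1, 2 and 3 and 11836, 9645 and 8362 on the controls. Its lowest GapmeR Ntep array lay above its highest control, and the difference was 0.91 (SE 0.27, adjusted p = 0.107). Plk1, the polo kinase of centrosomes, kinetochores and the division site, read 37780.4, 31907 and 43448 against 21711, 26366 and 23139. The groups did not overlap, at a difference of 0.66 (SE 0.19, adjusted p = 0.0993). Aurka, which drives centrosome maturation and spindle assembly, read 29390.1, 27435 and 26021 against 25496, 24377 and 23906. Its groups did not overlap either, although the difference was only 0.17 (95% interval -0.21 to 0.54).

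The spindle assembly checkpoint genes ran from Bub1b, the highest, to Bub1, near 0, with a median of 0.28. Bub1b, which encodes the checkpoint protein BubR1, read 12263, 14524 and 14317 under GapmeR Ntep and 6978, 10593 and 8925 in controls. All GapmeR Ntep arrays lay above all controls, at a difference of 0.65 (SE 0.21, adjusted p = 0.13). Ttk, the Mps1 kinase that starts the checkpoint signal, differed by 0.57 (SE 0.24), with overlapping groups. Mad2l1, the Mad2 protein that holds Cdc20, differed by 0.28 (SE 0.19) and its other 2 probes by 0.37 and 0.17. Bub3, which brings the Bub proteins to kinetochores, differed by 0.08 (SE 0.16). Bub1, a kinase of the same complex, read 14928, 15452 and 16076 against 15487, 17979.7 and 15089. These groups overlapped, and the difference was -0.06 (95% interval -0.45 to 0.33). The Bub1 probe was printed 10 times on each array, and its spots varied by 1.77% to 4.77% (coefficient of variation), at most 0.07 as a log2 SD, while on that scale the 3 GapmeR Ntep arrays varied by 0.05 and the 3 control arrays by 0.14.

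The chromosomal passenger complex places Aurora B at centromeres and later at the midzone, and its 3 tested subunits had a median of 0.37. Cdca8, which encodes borealin, read 79322, 67574 and 66890.1 under GapmeR Ntep and 50848, 37437 and 38374 in controls by its brightest probe. The groups did not overlap, at a difference of 0.77 (SE 0.20, adjusted p = 0.0772). The other Cdca8 probe, whose sequence is printed above, read 16228, 13715 and 14306 against 8049, 6528 and 6617. It differed by nearly the same amount in each experiment (1.01, 1.07 and 1.11) and rose by 1.06 (SE 0.18, adjusted p = 0.0341), the only 1 of the 52 tested probes of the mitotic genes to pass. Incenp, the scaffold of the complex, differed by 0.37 (SE 0.17), and a probe that overlaps this one by 0.46 (SE 0.19), in both cases without overlap of the groups. Birc5, or survivin, read 115168, 120610.0 and 100755 against 121241, 110689 and 103003. Its groups overlapped, and the difference was 0.01 (95% interval -0.40 to 0.41), with 0.27 (SE 0.15) and 0.02 (SE 0.34) at its other 2 probes.

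**Figure D4:**
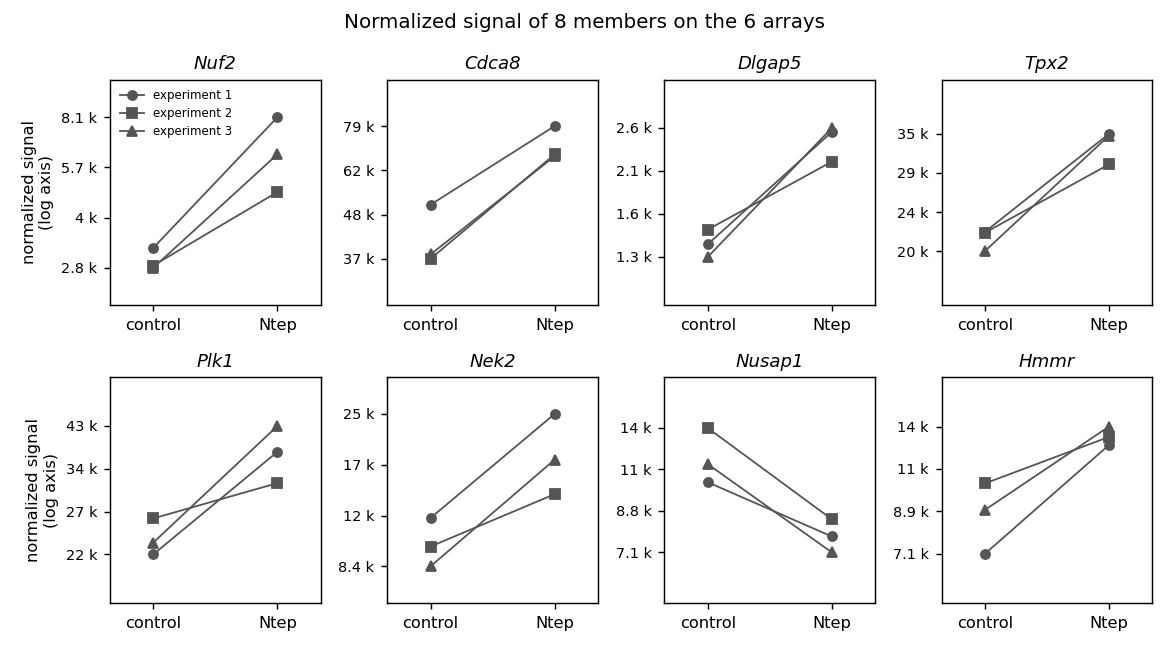
Normalized signal (log axis) of the 8 tested genes with the lowest adjusted p on the GapmeR control and GapmeR Ntep arrays, with 1 line for each of the 3 experiments. Every line points in the direction of its gene's fitted difference, upward for 7 genes and downward for Nusap1, and the groups do not overlap in any panel.

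Kinetochore and centromere genes split, with 4 above 0, 3 below and a median of 0.15. Nuf2, the subunit that pairs with Ndc80 at the microtubule-binding end of the Ndc80 complex, had the largest difference of the 38 genes. It read 8128, 4814 and 6269 under GapmeR Ntep and 3256, 2878 and 2833 in controls. The groups did not overlap, at a fold of 2.1 (log2 difference 1.07, SE 0.23, unadjusted p = 0.00372, adjusted p = 0.0566), and the difference was smallest in experiment 2 (1.32, 0.74 and 1.15). Another Nuf2 probe differed by 0.87 (SE 0.26), again without overlap, and the remaining one was not well above background on any array. The other subunits of the Ndc80 complex lay nearer to 0. Ndc80 differed by 0.15 (SE 0.20) and Spc24 by -0.21 (SE 0.23). Spc25 read 60209, 61264 and 57592 against 68369.7, 60678 and 59071, with overlapping groups and a difference of -0.07 (95% interval -0.45 to 0.31). The interval of Nuf2, 0.50 to 1.64, lay above those of Spc25 and Spc24 (-0.78 to 0.35) and overlapped that of Ndc80 (-0.34 to 0.64). The differences between these genes were not tested. Cenpa, the histone variant that marks centromeres, differed by 0.50 (SE 0.18) without overlap. Cenpe, a kinetochore motor, differed by -0.24 (SE 0.19), and Cenpf, a large kinetochore protein, by 0.30 (SE 0.27).

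Of the mitotic kinesins, 5 of 6 were above 0, with a median of 0.24 that differed by experiment (0.36, -0.14 and 0.48 in experiments 1, 2 and 3). Kif23, the motor of centralspindlin, which bundles midzone microtubules, read 8887, 5351 and 8638 under GapmeR Ntep and 5113, 5051 and 4407 in controls. The groups did not overlap, but the difference was 0.80 and 0.97 in experiments 1 and 3 and 0.08 in experiment 2, and 0.62 when pooled (SE 0.25, adjusted p = 0.192). Kif2c, which depolymerizes microtubules at wrong attachments, differed by 0.48 (SE 0.16) without overlap, and its other probe by 0.33 (SE 0.21) with overlap and by 0.03 in experiment 2. Kif20b, a motor of cytokinesis, differed by 0.31 (SE 0.22), and Kif20a, which carries passenger proteins to the midzone, by 0.17 (SE 0.17). Kif4, the chromokinesin that works with Prc1 on the midzone, read 1771, 1311 and 1644 against 1379, 1567 and 1459.9. Its groups overlapped, at a difference of 0.09 (95% interval -0.36 to 0.54). Kif11, which pushes the spindle poles apart, was the 1 motor of these 6 on the lower side (-0.24, SE 0.16), in all 3 experiments and without overlap.

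Spindle and midzone microtubule proteins had a median of 0.54, with 5 of 6 genes above 0. Dlgap5, or HURP, which stabilizes kinetochore fibers, read 2537, 2158 and 2592 under GapmeR Ntep and 1377, 1492 and 1285 in controls. The groups did not overlap, and its difference of 0.81 (SE 0.17) had the lowest adjusted p of the 38 genes, 0.0511. Another Dlgap5 probe differed by 0.52 (SE 0.37), with overlapping groups. Tpx2, which activates Aurora A on the spindle, read 34796, 30000.3 and 34506 against 21623, 21534 and 19690.0. It did not overlap between groups and differed by 0.66 (SE 0.16, adjusted p = 0.0695), with 0.42 (SE 0.20) at its other probe. Hmmr, a spindle protein that binds Tpx2, differed by 0.61 (SE 0.20) without overlap, and Ckap2, which binds and stabilizes microtubules, by 0.47 (SE 0.28) with overlap. Prc1, which crosslinks midzone microtubules, read 87605, 80671 and 69868 against 75983, 65176 and 58965, a difference of 0.25 (95% interval -0.20 to 0.71). Nusap1, which binds microtubules near chromosomes, was the exception in this group. It read 7728, 8449.6 and 7116 under GapmeR Ntep and 10242, 13572 and 11251 in controls, lower in all 3 experiments (-0.41, -0.68 and -0.66) and without overlap. Its difference of -0.58 (SE 0.18, adjusted p = 0.12) was the only one on the lower side with an unadjusted p under 0.05.

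Neither cleavage furrow gene differed by more than the spread between arrays. Ect2, which activates RhoA at the equator, read 48519, 42857 and 42649 under GapmeR Ntep and 49492, 39316 and 33978 in controls. The groups overlapped, at a difference of 0.14 (95% interval -0.35 to 0.63). Another Ect2 probe, well above background on 2 of 6 arrays, had the opposite sign (-0.47, SE 0.34). Anln, which ties the contractile ring to its regulators, read 59002, 55888 and 55703 against 66859.8, 62327 and 51715, with overlapping groups and a difference of -0.08 (95% interval -0.50 to 0.34).

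Among the regulators of the anaphase-promoting complex and of sister separation, 3 of 5 genes were above 0 and the median was 0.20. Espl1, or separase, the protease that opens cohesin, read 3832, 5694 and 5327 under GapmeR Ntep and 2821, 3753 and 3352 in controls. The groups did not overlap, at a difference of 0.57 (SE 0.23, adjusted p = 0.187). Cdc20 and Fzr1, the early and the late activator of the complex, had opposite signs, 0.45 (SE 0.17) and -0.36 (SE 0.20), each in all 3 experiments and, by the brightest probe, without overlap. The groups overlapped at the other Fzr1 probe (-0.27, SE 0.33). Ube2c, a ubiquitin-conjugating enzyme that serves the complex, read 36279, 26708 and 39283 against 31228, 27939 and 29049. Its groups overlapped, at a difference of 0.20 (95% interval -0.30 to 0.69). Pttg1, or securin, the inhibitor of separase, could not be given 1 direction, because its probes disagreed. The brightest read 46246, 54449.7 and 51973 against 41667, 70858 and 68264 (-0.21, SE 0.25), with overlapping groups. The other read 1563, 1770.1 and 2257 against 962, 1273 and 1172 (0.71, SE 0.22, adjusted p = 0.112), without overlap.

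Top2a, which untangles sister chromatids, read 8063, 13459.6 and 10740.4 under GapmeR Ntep and 8176, 13951 and 11326 in controls. Both groups varied together by experiment, so that the difference within an experiment was small each time (-0.02, -0.05 and -0.08) and the pooled difference of -0.05 carried the largest SE of the 38 genes, 0.29. Of the 39 genes, 13 had more than 1 probe, and the tested probes of 2, Ect2 and Pttg1, differed in sign.

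Promoters of late cell cycle genes often carry the CHR element, TTTGAA or TTCGAA, through which the MuvB complex acts, and CCAAT boxes, which NF-Y binds. RefSeq promoter windows from 250 bases before to 50 bases after the start (GRCm38.p6) were found for 33 of the 39 genes. TTTGAA, read on either strand, was in 24 of these 33 windows (72.7%, beside 18.1% of the windows of 27025 genes). CCAAT on either strand was in 24 of 33 as well (72.7%, beside 37.9%), and 15 of them held more than 1 copy. TTCGAA, which reads alike on both strands, was in 3 windows (9.09%, beside 1.57%). The median GC content was 59% in the 33 windows and 52.7% in all. A match describes letters in a window and not binding.

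The promoters of the 5 genes with the lowest adjusted p among these 33 are printed from 110 bases before to 30 bases after the start, to show where the letters lie beside the largest differences. Matches to these elements on either strand are in capitals. The stretches lie on the minus strand at chr1:169531435-169531574 (Nuf2) and chr4:124936888-124937027 (Cdca8), and on the plus strand at chr7:122159325-122159464 (Plk1), chr1:191821363-191821502 (Nek2) and chr2:119618188-119618327 (Nusap1).
Nuf2: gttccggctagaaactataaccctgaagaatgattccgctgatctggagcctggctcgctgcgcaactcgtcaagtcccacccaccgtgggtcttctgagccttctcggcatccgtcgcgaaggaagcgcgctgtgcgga
Cdca8: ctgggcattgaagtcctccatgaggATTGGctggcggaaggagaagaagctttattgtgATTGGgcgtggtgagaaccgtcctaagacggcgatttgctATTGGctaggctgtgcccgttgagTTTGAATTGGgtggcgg
Plk1: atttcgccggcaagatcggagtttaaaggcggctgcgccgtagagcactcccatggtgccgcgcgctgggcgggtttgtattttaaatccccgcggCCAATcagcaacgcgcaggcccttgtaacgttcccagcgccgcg
Nek2: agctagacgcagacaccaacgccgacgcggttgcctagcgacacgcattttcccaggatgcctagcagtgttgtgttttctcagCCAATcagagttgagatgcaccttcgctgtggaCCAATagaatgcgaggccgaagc
Nusap1: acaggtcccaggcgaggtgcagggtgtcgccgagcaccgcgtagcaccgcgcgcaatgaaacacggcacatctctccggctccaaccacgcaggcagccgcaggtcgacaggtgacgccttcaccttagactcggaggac

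The Cdca8 promoter held ATTGG 85, 51 and 11 bases before the start and again from base 19 after it, where it overlaps the TTTGAA that begins at base 14. In the Plk1 promoter CCAAT began 14 bases before the start, and in the Nek2 promoter 26 bases before it and again at base 8 after it. The promoters of Nuf2 and Nusap1, the genes with the highest and the lowest difference, held none of these letters. Across the 33 genes, the median log2 difference was 0.30 for the 24 with TTTGAA and -0.06 for the 9 without it. It was 0.27 with CCAAT and 0.15 without it, and -0.05 for the 3 genes with TTCGAA and 0.27 for the 30 without it. These medians describe overlapping sets of few genes, without a test.

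A wider list of 138 genes of the same processes, of which 134 were found on the array and 132 were tested, was read in the same way. With an adjusted p under 0.05, 3 of these genes rose (2.27%, beside 1.99% of all tested genes) and 1 fell (0.758%, beside 3.18%). The median difference was 0.12, with 80 genes (60.6%) above 0 and 52 below, beside 54.3% of all tested genes above 0. With the experiment as a block, 9 genes (6.82%) were called higher and 4 (3.03%) lower, beside 6.5% and 7.41% of all tested genes.

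The gene that fell was Racgap1, the partner of Kif23 in centralspindlin and the docking site of Ect2. It read 3691, 10652 and 6618 under GapmeR Ntep and 65368, 37280.0 and 35354 in controls. Every GapmeR Ntep array lay below every control, at a log2 difference of -2.79 (SE 0.45, adjusted p = 0.0335). A second Racgap1 probe, which overlaps the first on the genome and so reads nearly the same stretch, gave 1809, 4247 and 3212 against 27370.2, 18876 and 17694. Its difference was -2.84 (SE 0.36, adjusted p = 0.025). The partners of Racgap1, Kif23 and Ect2, were measured at 0.62 and 0.14.

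The 3 genes that rose serve cohesion and the kinetochore. Cdca5, or sororin, which keeps sister chromatids together until anaphase, read 44679.9, 35827 and 42468 against 18851, 18517 and 17679.8 (1.15, SE 0.17, adjusted p = 0.0287). Nsl1, a subunit of the Mis12 complex that links centromeres to the Ndc80 complex, read 29778, 21965 and 33399.7 against 9990.5, 12069.8 and 11844 (1.31, SE 0.22, adjusted p = 0.0345). Cenpo, of the constitutive centromere-associated network, read 16498, 12936 and 12829.9 against 6749, 6938 and 6445 (1.06, SE 0.18, adjusted p = 0.0345). In each of them the lowest GapmeR Ntep array lay above the highest control, and second probes of Nsl1 (1.00, SE 0.18) and Cenpo (0.89, SE 0.22) had the same sign. Without the GapmeR Ntep array of experiment 2, the calls of Racgap1, Cdca5 and Nsl1 held, and without any other single array, controls included, none of the 4 did. In those other fits at most 0.577% of all tested genes were called higher and 1.19% lower, and without the control array of experiment 2 or the GapmeR Ntep array of experiment 3 no gene of the array was called. Over the fits without 1 array, the difference was -3.16 to -2.40 for Racgap1, 1.09 to 1.25 for Cdca5, 1.18 to 1.49 for Nsl1 and 0.94 to 1.12 for Cenpo.

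By the rule of a fold of 2 with an unadjusted p under 0.01, 4 genes of the wider list (3.03%, beside 2.89% of all tested genes) were higher and 3 (2.27%, beside 5%) lower. Beyond the genes above, these were Sgo2a, a shugoshin that protects centromeric cohesion (1.19, SE 0.28, adjusted p = 0.0663), Cenpp of the centromere network (-2.17, SE 0.53, adjusted p = 0.0696) and Arpp19, an inhibitor of the phosphatase that opposes Cdk1 (-1.04, SE 0.22, adjusted p = 0.0518). With the experiment as a block Cenpp (adjusted p = 0.0439) and Arpp19 (adjusted p = 0.0337) passed, and Sgo2a did not (adjusted p = 0.0511). A second Cenpp probe, well above background on 3 of 6 arrays, differed by -0.19 (SE 0.25). Its signals of 48.8 to 89.4 were too dim to decide the size of the Cenpp difference.

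By group, the median was highest for cohesin and its regulators (0.31 over 12 genes), then for other spindle motors and microtubule proteins (0.20 over 27) and centriole and centrosome proteins (0.16 over 12). Next came the anaphase-promoting complex (0.15 over 13, its subunits together with Fbxo5 and Ube2s, which are not subunits) and condensin (0.12 over 8). The median lay nearest to 0 for other kinases and phosphatase regulators (0.04 over 12), other kinetochore proteins (0.01 over 31) and other cytokinesis proteins (-0.01 over 17). The last group also held Mki67, a proliferation marker rather than a cytokinesis protein. Mki67 differed by -0.84 (SE 0.27, adjusted p = 0.128), lower in all 3 experiments and without overlap of the groups. None of the following 8 genes passed the adjusted test without the block, although each had a large difference within its group. With the block, by the brightest probe, Cep152 passed (adjusted p = 0.0481). Stil and Cep152, which build centrioles, differed by 0.83 (SE 0.18) and 0.79 (SE 0.22). Cdc27 and Anapc13, subunits of the anaphase-promoting complex, differed by 0.59 (SE 0.19) and -0.59 (SE 0.19). A second Cdc27 probe differed by 0.97 (SE 0.22, adjusted p = 0.0594) and passed with the block (adjusted p = 0.0460). Ncapd2 and Smc2 of condensin differed by 0.45 (SE 0.23) and 0.45 (SE 0.21), the histone kinase Haspin by 0.55 (SE 0.21) and the centrosome protein Cdk5rap2 by -0.84 (SE 0.23). Aurkc, an Aurora kinase whose probe was well above background on 5 of 6 arrays, differed by -0.77 (SE 0.69) (adjusted p = 0.519) and passed with the block (adjusted p = 0.0444). The brightest Kif2a probe read 107823, 67.3 and 118 on the GapmeR Ntep arrays and 138, 90.9 and 97.1 on the controls, so that its difference of 3.15 (SE 2.78) rested on the array of experiment 1. Without that array it was -0.26, and 2 other probes of this microtubule depolymerase differed by 0.31 (SE 0.23) and -0.59 (SE 0.24).

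**Figure D5:**
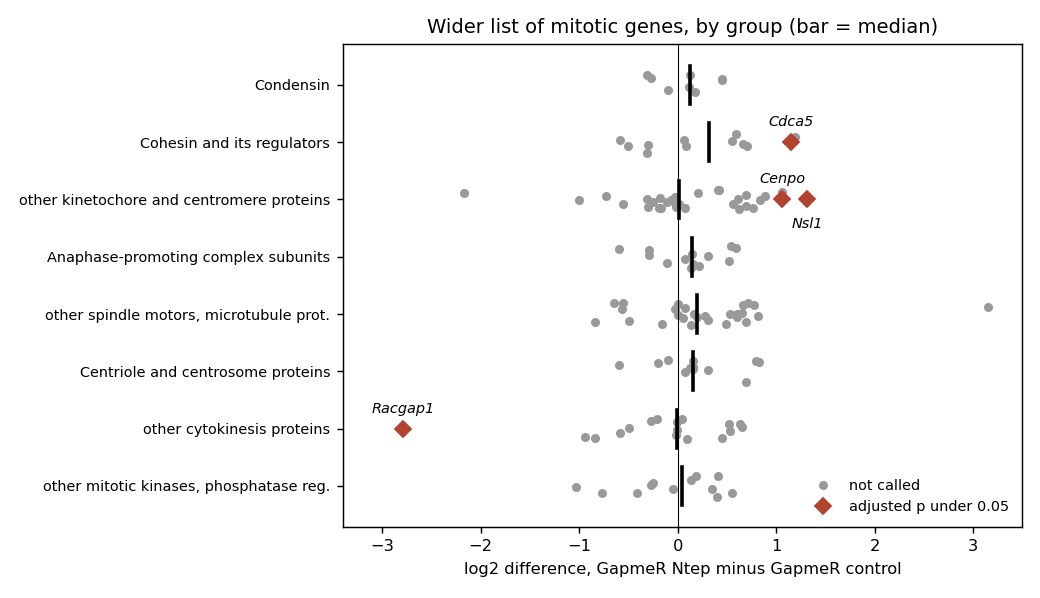
Log2 difference of the 132 tested genes of the wider mitotic list by group (1 point per gene, bar at the group's median), with the 4 genes of adjusted p under 0.05 as named diamonds. Cdca5, Cenpo and Nsl1 lie between 1.06 and 1.31 and Racgap1 at -2.79, and the point at 3.15 is the Kif2a probe that was bright on 1 array.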

How the data were processed

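RNA from 3T3 cells was measured on 6 Agilent 1-color arrays, 3 per group. The authors extracted the intensities with Agilent Feature Extraction (10.7.3.1, per the submitters' processing notes) and deposited both the processed intensities of each array, not normalized between arrays, and a table of quantile normalized intensities with values under 20 replaced. Depth does not apply to arrays, and their number limits the precision.

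Here spots of a probe were averaged, arrays quantile normalized and values under 20 set to 20. The log2 values of the deposited intensities were compared with limma 3.58.1 (R 4.3.3), unpaired and two-sided. Testing took in the 30990 probes whose mean reached 50 in either group, with Benjamini-Hochberg adjustment over them all, and the brightest probe stood for a gene. The fit was also run on simulated data whose noise was drawn independently for each array. Such noise holds no correlation within an experiment, so that run cannot check the unpaired fit for it. The study's supplementary list pairs the arrays of each experiment by number and culture day. Residuals of arrays of the same experiment correlated at 0.25 to 0.47, and a fit with the experiment as a replicate block was run as an alternative.

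Values per array are given for genes past either call rule and for the largest and smallest difference of each role group, with the same condition on background as below. In the wider list the genes past the adjusted rule are named and, in groups without an adjusted call, the 2 with the largest differences whose probe was well above background on each of the 6 arrays. Wider genes named for passing the fold rule, Aurkc and Mki67 were added after their values were seen. So were the values of Cldn3 and Myog and the results of cell type markers with the block. Per-array values of Plk1, Tpx2 and Nusap1 and of second probes were added after they had been seen. The members and lists were chosen with earlier results of these data known.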

Additional observations from a re-analysis of the deposited data

How the results depend on the processing

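No member passed the adjusted test in the reported fit, under 75th percentile scaling, in the authors' normalized table, with a floor of 5, without the filter on dim probes, with the methods' t-test or without experiment 1. The count was 1 with outlier spots removed (Dlgap5), with the mean of all tested probes (Cdca8) or by any tested probe (Cdca8), 2 with the replicate block (Nuf2, Cdca8), with probes well above background on at least 3 arrays (Nuf2, Dlgap5) or with the variance prior over all probes (Tpx2, Dlgap5), 4 with normexp background correction or a mean of at least 200 (Cdca8, Nuf2, Tpx2 and Dlgap5 in both), 6 with an intensity trend, and 17 with array weights, which called 17.5% of all genes higher and 16.1% lower. Of all genes, 2.07% were higher and 2.7% lower with normexp, 5.27% and 6.6% with a mean of at least 200, 3.37% and 4.88% with 3 arrays well above background, 3.86% and 5.23% with the trend, 2.74% and 2.73% with the prior over all probes, 2.15% and 3.32% with outlier spots removed, 2.02% and 3.11% with the mean of all tested probes, 0.471% and 0.453% with the methods' t-test, and 1.2% and 1.65% without experiment 1, against 1.99% and 3.18% as reported and 6.5% and 7.41% with the block. Leaving out 1 array gave 0 to 1, the 1 being Nuf2 without the GapmeR Ntep array of experiment 2 (adjusted p = 0.0477). Of all genes, 1.48% were higher and 2.85% lower in that fit, and at most 0.577% and 1.19% in the other fits without 1 array. The count past a fold of 2, 1 as reported, was 0 with the mean of all tested probes and without experiment 1, 2 by any tested probe, and 0 to 2 without 1 array. The share of all genes by that rule was counted only in the reported fit. The count of 4 in the wider list became 12 with normexp, 13 with a mean of at least 200, 13 with the replicate block, 15 with an intensity trend, 54 with array weights, 1 with the methods' t-test, 1 without experiment 1 (Cenpp, none of the 4), and 0 to 5 without 1 array, to be read against the shares of all genes above. Of those 4, Cdca5 and Cenpo were called without the filter on dim probes, where 0.574% of all genes were higher and 0.555% lower. Cdca5 alone was called with the methods' t-test, and Cdca5, Cenpo and Nsl1 with the variance prior over all probes. Racgap1 was called in none of these fits. The median difference of the members, 0.27, was 0.49 under 75th percentile scaling and 0.20 to 0.35 without 1 array. Above the median of all genes it stood by 0.28 under that scaling and by 0.21 as reported. Signs turned under that scaling for Bub1 (0.053), Spc25 (0.16), Anln (0.15) and Top2a (0.030), with normexp for Birc5 (-0.013), with array weights for Birc5 (-0.039) and Ndc80 (-0.035), with the mean of all tested probes for Ect2 (-0.16) and Pttg1 (0.25), and without experiment 1 for Ndc80 (-0.011), Kif4 (-0.043) and Kif2a (-0.076). Without 1 array the difference ranged from -0.051 to 0.081 for Birc5, -0.26 to 0.14 for Top2a, -0.18 to 0.0018 for Anln, -0.11 to 0.018 for Bub1, -0.26 to 5.06 for Kif2a and -1.06 to 0.13 for Ntep. The causes were not tested. The count of genes with 1 direction in all 3 experiments was 24 to 28 and could not be formed without 1 array. Its share of all genes was counted only as reported, 32.3% higher and 26.9% lower. The any-probe, variance prior and experiment 1 settings were chosen after seeing the data.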
